A study of Mus musculus with 12 samples.

Results

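Accessible regions of mouse chromosome 11 were examined by ATAC-seq in embryonic stem cells (ESCs), as cells and as isolated mitotic chromosomes. All peaks that the 12 deposited peak lists place on chromosome 11 were taken, 31349 of 438517 peaks in all. The chromosome was chosen on its higher share of the lists in Suv39h dn than in WT, so the share by genotype, and every other measure of that contrast, is described here with no test. In ATAC-seq a transposase inserts adapters into open DNA, and a peak is a place where the sequenced fragments pile up. WT ESCs (line WT26) were compared with Suv39h dn ESCs (line DN57), which lack the H3K9 methyltransferases Suv39h1 and Suv39h2. Both lines are male, each genotype is represented by 1 line, and all cells were grown with LIF. The assay was run on asynchronous cells, on mitotic cells collected by shake-off after 6 h in 0.1 μg/ml demecolcine, and on chromosomes flow-sorted from such arrested cells, with 2 libraries for each line and preparation, 12 in all.

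Chromosome 11 is a gene-rich mouse chromosome, with its centromere at one end. It carries the alpha-globin genes, the Hoxb cluster, the type I keratins and the genes of the mitotic kinase Aurkb and of Stat3, the transcription factor through which LIF keeps mouse ESCs undifferentiated. Mouse ESC lines in long culture are known to gain whole copies of some chromosomes, of which 8 and 11 are well-known examples. A gain of the whole chromosome adds fragments along its entire length, in peaks and between them, whereas an opening of single regions adds them only there. The chromosome makes up 4.64% of the length of chromosomes 1 to 19 and X and holds 6.19% of their annotated start sites, or 66.2 start sites per Mb. The autosomes nearest to it in this density are 19, with 65.2, and 17, with 68.95.

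The lists held between 1746 and 80602 peaks, and the 4 mitotic lists, with 1746 to 14328, were the shortest. The labels do not say whether the libraries of a group came from separate cultures, so the p-values measure the spread between libraries, which may be technical. Of 10 genes that mark ESCs, all 10 had a promoter peak (a summit within 1 kb of an annotated start site) in at least 1 library, with Zfp42 in 10 of 12 and Nanog in 2. Of 6 fibroblast markers 2 had one, and of 6 endoderm markers 5. Suv39h1 had a promoter peak in 2 of 6 WT and 0 of 6 Suv39h dn libraries, and Suv39h2 in 4 and 2. Whether the deletion removes these start sites is not given in the sources used here.

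Sequences that reach 75 bases to either side of the highest summit are shown for some of the regions named by presence and by the authors' fold, as examples of the DNA under such peaks, and not all of the highest regions are printed. They come from the GRCm38 reference, plus strand, with matches to 6 motifs in capitals. Of the 23 regions called in all 12 libraries 78.3% were at promoters, and the 3 below had rank 1, 4 and 5 by mean percentile of fold. The first, between genes at chr11:54140060-54140210, lies 12442 bp from a start site of P4ha2, a collagen prolyl hydroxylase. The second lies in an intron of Kcnip1 (chr11:33754904-33755054), and the central 31 bases of it occur 11 times in the reference, on 11 chromosomes. The third, chr11:106084323-106084473, is the promoter of the kinase gene Map3k3, with its summit 215 bp from a start site, and its capitals mark CCAAT (the core of the NF-Y motif) read on the minus strand, at 2 places.
P4ha2 distal: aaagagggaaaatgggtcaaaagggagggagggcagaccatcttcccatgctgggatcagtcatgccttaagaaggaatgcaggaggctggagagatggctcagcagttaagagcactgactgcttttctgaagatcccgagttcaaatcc
Kcnip1 intron: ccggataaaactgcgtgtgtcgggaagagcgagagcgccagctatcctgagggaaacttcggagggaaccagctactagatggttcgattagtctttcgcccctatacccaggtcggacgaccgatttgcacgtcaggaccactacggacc
Map3k3 promoter: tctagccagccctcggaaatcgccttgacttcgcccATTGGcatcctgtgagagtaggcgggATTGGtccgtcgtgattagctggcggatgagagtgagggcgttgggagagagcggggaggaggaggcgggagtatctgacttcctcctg

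The next sequences show regions that depended on the preparation. Among the 3 highest of 296 regions called in all 4 libraries of sorted chromosomes and in 0 of the 8 from cells were tandem repeats in introns of Rnf157 (chr11:116360949-116361099) and Ap1b1 (chr11:5021229-5021379). The region called in all 8 libraries from cells and in 0 of sorted chromosomes with the highest percentile, chr11:54140487-54140637, lies next to the P4ha2 distal region above, which was called in all 12. One of the 3 highest regions called in the 4 asynchronous libraries alone, chr11:100262210-100262360, lies 1256 bp from a start site of the keratin gene Krt17 and holds 1 CCAAT in capitals.
Rnf157 intron: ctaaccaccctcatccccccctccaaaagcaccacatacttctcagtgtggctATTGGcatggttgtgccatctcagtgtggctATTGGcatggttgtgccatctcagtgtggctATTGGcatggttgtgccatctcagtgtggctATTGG
Ap1b1 intron: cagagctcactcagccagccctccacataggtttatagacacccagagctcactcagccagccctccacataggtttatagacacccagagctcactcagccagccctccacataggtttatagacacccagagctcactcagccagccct
P4ha2 distal, cells: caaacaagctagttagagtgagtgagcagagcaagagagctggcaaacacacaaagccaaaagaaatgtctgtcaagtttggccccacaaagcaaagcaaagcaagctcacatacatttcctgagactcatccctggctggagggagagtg
Krt17 upstream: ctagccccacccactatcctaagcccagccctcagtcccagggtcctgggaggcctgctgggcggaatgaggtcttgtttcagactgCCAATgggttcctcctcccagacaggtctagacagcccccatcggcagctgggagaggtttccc

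The fold of a peak is the authors' ratio of fragments at the summit to background, with 1 added to each. At a low background it therefore rises with the number of fragments. Depth is not part of the lists, so the folds below are not corrected for it. At the Map3k3 promoter it was 9.89 to 15.6 in asynchronous cells, 6.25 to 10.7 in mitotic cells and 7.98 to 9.97 in sorted chromosomes, with overlap between all 3 preparations. The P4ha2 distal region ranged from 19.4 to 36.8 over the 12 libraries, with no order by preparation. A region between genes near the pseudogene Gm11668, with rank 2, was at 21.5 to 24.4 in all 12. The Kcnip1 intron was at 10.8 to 17.8 in asynchronous cells, 12.5 to 23.0 in mitotic cells and 23.5 to 28.0 in sorted chromosomes. The central 31 bases of this region occur 11 times in the reference, so fragments from other chromosomes may be counted there. Copies that the reference lacks were not counted. The fold cannot be ascribed to the Kcnip1 intron alone. In the Rnf157 intron the 2 Suv39h dn libraries of sorted chromosomes, at 18.9 and 23.2, were above the 2 WT libraries, at 8.30 and 12.8.

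Chromosome 11 held a larger share of the lists than its length in every library. In asynchronous cells WT libraries had 5.65% and 5.95% of their peaks there, and Suv39h dn libraries 7.21% and 6.08%. In mitotic cells the WT libraries had 8.02% and 7.06%, and the Suv39h dn libraries 9.56% (from 167 peaks) and 8.70%. For sorted chromosomes the WT values were 6.57% and 8.22% and the Suv39h dn values 7.44% and 9.22%. Both Suv39h dn libraries were above both WT libraries in asynchronous and in mitotic cells, and the genotypes overlapped in sorted chromosomes. By mean log2 share the chromosome ranked first of 20 for Suv39h dn minus WT in asynchronous cells (0.193), with chromosome X next at 0.155. It also ranked first in mitotic cells (0.278), with chromosome 9 next at 0.25, and second in sorted chromosomes (0.174), where chromosome 12 was at 0.51. The SD between libraries of a group, pooled over groups, was 0.163 on this scale. By peaks per Mb the chromosome ranked first or second of 20 in all 12 libraries. Relative to its share of start sites, it ranged from 0.915 in an asynchronous WT library to 1.56 in a mitotic Suv39h dn library. Over the same libraries chromosome 19, with a like density of start sites, held 2.28% to 3.58% of the peaks, against 2.33% of the length. Chromosome 17 held 3.93% to 5.63%, against 3.61% of the length, and chromosome 8 6.43% to 10.7%, against 4.91%.

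**Figure D1:**
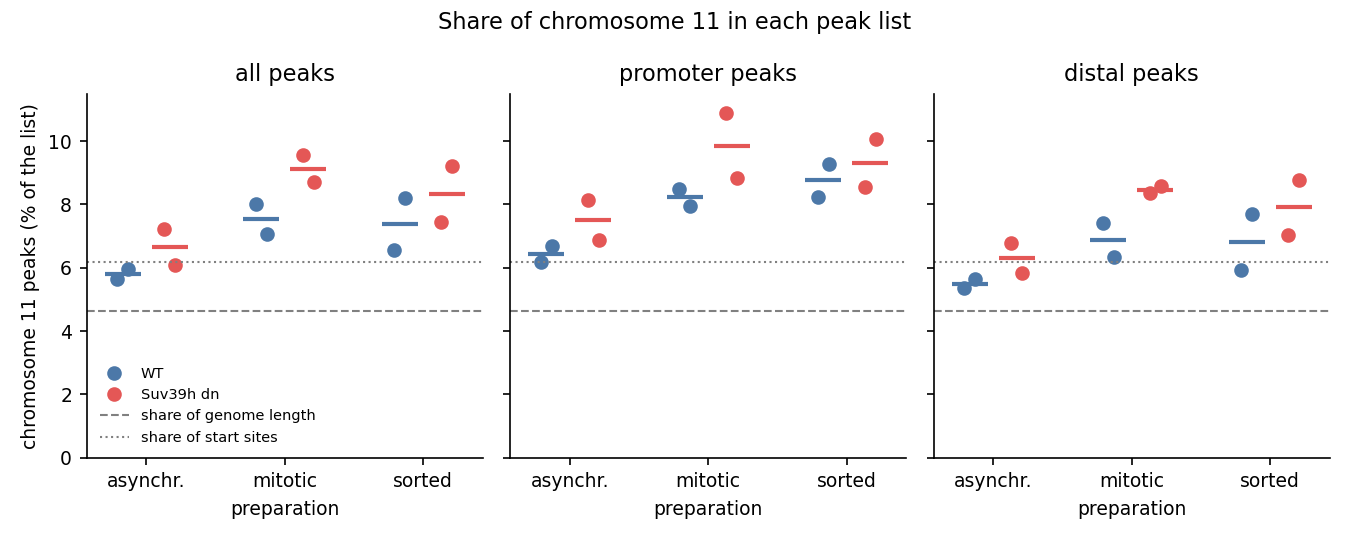
Percent of the peaks of each list that lay on chromosome 11 (vertical axis), for all peaks, promoter peaks and distal peaks, by preparation (horizontal axis). Points are libraries (blue WT, red Suv39h dn), short lines are means of 2 libraries, the dashed line is the chromosome's 4.64% of the genome's length and the dotted line its 6.19% of start sites. The lowest shares are those of the asynchronous WT libraries.

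The first test asked whether the share of chromosome 11 differs between cells in mitosis and asynchronous cells. It was higher in both mitotic libraries than in both asynchronous libraries in each genotype, with means of 7.54% ± 0.682 (SD, n = 2) against 5.80% ± 0.214 (SD, n = 2) in WT and 9.13% ± 0.615 (SD, n = 2) against 6.65% ± 0.800 (SD, n = 2) in Suv39h dn. Averaged over genotypes it was larger by 0.42 on the log2 scale, or 1.34-fold, the highest value of the 20 chromosomes. Its exact two-sided permutation p of 0.0556 is the smallest that the 36 arrangements allow (adjusted p = 0.0926), and 12 of the 20 chromosomes reached it. The design therefore cannot pass the threshold, and 0.0% of chromosomes were called, with 0 at an unadjusted p under 0.05 by this permutation test. Chromosomes 8, 17 and 19 had differences of 0.295, 0.28 (0.285) and 0.15 (0.155). The mitotic lists were the shorter ones, and with all lists shortened to 1746 peaks the difference of chromosome 11 was 0.51. Among peaks with a q-value at or under 1e-05 it was 0.22.

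The share did not differ detectably between sorted chromosomes and cells. The difference, sorted chromosomes minus the mean over libraries from cells within each genotype, was 0.12 on the log2 scale (p = 0.422, adjusted p = 0.528, exact permutation test over 225 arrangements), where 15.0% of chromosomes were called. Sorted libraries were above libraries from cells in 6 of 8 pairs in WT and 5 of 8 in Suv39h dn. In each genotype both sorted libraries were above both asynchronous libraries, while sorted and mitotic libraries overlapped. The pooled difference averages over these, and neither comparison was tested by itself. For comparison, chromosome 19 had a difference of 0.365 (adjusted p = 0.0296, exact permutation test). With lists of equal length the difference of chromosome 11 was -0.09, the opposite direction. Leaving out 1 library gave 0.04 (without the second WT library of sorted chromosomes) to 0.20 (without the first).

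Promoter and distal peaks were then taken apart. The chromosome held 6.17% to 10.9% of the promoter peaks of a library and 5.35% to 8.77% of the distal peaks, and its share of promoter peaks was the higher in all 12 libraries. Between sorted chromosomes and cells the share of promoter peaks differed by 0.19 on the log2 scale (adjusted p = 0.326, exact permutation test; 20% of chromosomes were called) and that of distal peaks by 0.125 (adjusted p = 0.504, exact permutation test, with 40.0% called). Leaving out 1 library gave 0.13 to 0.25 for promoter peaks and 0.03 to 0.22 for distal peaks. At a q-value at or under 1e-05 the difference for promoter peaks was 0.46 and passed the threshold (adjusted p = 0.0356, exact permutation test). There the chromosome held 8.36% to 10.7% of the promoter peaks of the 4 sorted libraries and 5.58% to 9.10% of those of the 8 libraries from cells.

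Between 28.3% and 60.1% of the chromosome's peaks were at promoters, more than of the peaks elsewhere in each library. This excess over the rest was 0.821 percentage points larger in sorted chromosomes than in cells (adjusted p = 0.612, exact permutation test), where 0.0% of chromosomes passed after adjustment and 8 of 20 had an unadjusted p under 0.05. It was 1.76 points in WT and -0.121 in Suv39h dn. Leaving out 1 library gave 0.0802 (without the first WT library of sorted chromosomes) to 1.56 (without the second). Among the strongest peaks it was larger. At a q-value at or under 1e-05 the difference was 8.49 points (adjusted p = 0.0296, exact permutation test), and with lists of 1746 peaks 9.84 points (adjusted p = 0.0356, exact permutation test). In the shortened lists 40.9% to 51.9% of the chromosome's peaks in sorted libraries were at promoters, against 27.7% to 32.4% elsewhere.

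The GC content within 100 bp of the summit was higher on chromosome 11 than elsewhere in 11 of the 12 libraries, the exception being the second Suv39h dn library of sorted chromosomes, with 57.8% against 57.9%. The excess was smaller in sorted chromosomes, at a mean of 0.378 points in WT and 0.155 in Suv39h dn, than in cells, at 1.025 and 1.13. The difference of -0.812 points had an adjusted p of 0.0494 (exact permutation test), and 45% of chromosomes were called. All 4 sorted libraries were below all libraries from cells of their genotype. The call was lost when any of 10 libraries was left out, with values between -0.907 and -0.717, and was kept without the first or the second mitotic Suv39h dn library, at -0.573 and -0.931. Peaks with at least 50% repeat-masked bases around the summit were rarer on chromosome 11 in all 12 libraries, for example 16.2% against 29.7% in the first WT library of sorted chromosomes.

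The peaks were spread along the whole chromosome. Its 123 windows of 1 Mb include 3.1 Mb of unknown bases at the centromeric end, and 119 of them held a peak in every asynchronous and every sorted library. The mitotic lists covered 103, 114, 73 and 117 windows. The 10 fullest windows held 14.3% to 31.1% of the chromosome's peaks in a library, and the fullest 20 to 45 windows were enough to hold as many peaks as all the others. The rank correlation of windows between peaks and annotated start sites was 0.599 to 0.857 over libraries, as a description across windows, which are not replicates. The part of the chromosome on the centromeric side of its midpoint held 36.5% to 47.3% of the peaks and differed by 0.863 points between sorted chromosomes and cells (adjusted p = 0.781, exact permutation test, with 15.0% of chromosomes called).

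The fullest window on average was that from 3 to 4 Mb, the first with known sequence, with 3.17% of the chromosome's peaks. It held 10 to 92 peaks in libraries from cells and 138 to 180 in sorted libraries. Of these, 55 to 59 in sorted libraries and 3 to 21 in cells lay in Sfi1 (chr11:3131850-3193463, minus strand), which encodes a centrosome protein. There the median background was 21.2 to 78.5 times the lowest background of the library, against 1.38 to 2.26 times elsewhere on the chromosome. In sorted libraries the median fold was 2.67 to 3.11 in Sfi1 and 4.34 to 4.74 outside the window. Without this window the chromosome's share of the lists was 5.52% to 9.04%. The other full windows were those from 69 to 70 Mb (2.16%), which holds Aurkb and the circadian gene Per1, from 120 to 121 Mb (2.06%), with Actg1 and Fasn, from 116 to 117 Mb (1.77%), with the histone gene H3f3b, and from 4 to 5 Mb (1.64%), with Lif and Osm.

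Genotypes were compared along the chromosome as a description, to show whether the higher share in Suv39h dn was local or general. In asynchronous cells, 90 of 119 windows (75.6%) had a higher share of the list in Suv39h dn, against 53.25% of the windows of other chromosomes. In mitotic cells these were 67 of 117 (57.3%) against 39.8%, and in sorted chromosomes 88 of 119 (73.95%) against 47.9%. By this percentage chromosome 11 ranked first of 20 in asynchronous and mitotic cells and second in sorted chromosomes, behind chromosome 12 with 84.8%. Both Suv39h dn libraries were above both WT libraries in 34 windows (28.6%) of asynchronous cells, where 20.2% of all windows were, and below in 6 (5.04%), where 14.2% were. In mitotic cells they were above in 22 (18.8%, with 8.14% of all windows) and below in 10 (8.55%, with 18.1%). In sorted chromosomes they were above in 24 (20.2%, with 16.2% of all windows) and below in 7 (5.88%, with 14.8%).

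Segments of 10 Mb gave the same picture at lower resolution. The share of the list was higher in Suv39h dn in 12 of 13 segments of asynchronous cells, 12 of 13 of mitotic cells and 13 of 13 of sorted chromosomes, with median log2 differences of 0.22, 0.22 and 0.16. In asynchronous cells the 5 segments from the centromeric end to 50 Mb had differences of 0.275 to 0.40, and those from 60 to 120 Mb 0.05 to 0.22. The segment between them was at 0.235. The last segment of the asynchronous cells, at -0.15, was the exception. In mitotic cells the exception was the segment from 10 to 20 Mb, at -0.32, from 57 peaks in Suv39h dn and 71 in WT. The order along the chromosome was not the same in the other preparations. The highest difference was 0.565 in mitotic cells, from 90 to 100 Mb, and 0.32 in sorted chromosomes, from 110 to 120 Mb.

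**Figure D2:**
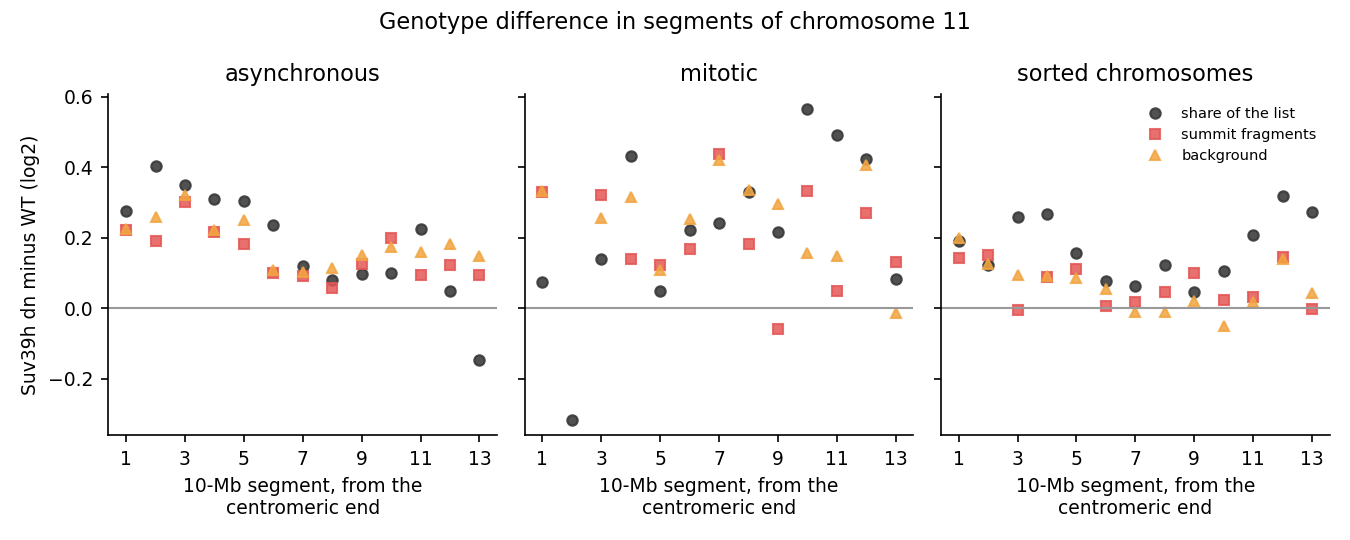
Difference between genotypes, Suv39h dn minus WT on the log2 scale (vertical axis), in 10-Mb segments of chromosome 11 numbered from the centromeric end (horizontal axis, the last one shorter), for each preparation. Circles show the share of the list, squares the fragments at the summit and triangles the background at regions called in all 4 libraries of the preparation, and most symbols lie above 0.

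The windows with the largest mean differences were few peaks apart. The share of the list was higher in Suv39h dn by 0.0773 percentage points from 3 to 4 Mb, by 0.0597 from 102 to 103 Mb, a window with Hdac5, Fzd2 and Kif18b, and by 0.0479 from 104 to 105 Mb, with Cdc27 and Kansl1. In each of these windows the mitotic lists differed the most, by 0.174, 0.135 and 0.119 points, and there the first mitotic Suv39h dn library held 10, 5 and 5 peaks. The share was lower in Suv39h dn by 0.0228 points from 83 to 84 Mb, with the Slfn genes and the chemokine genes Ccl3, Ccl4 and Ccl5, by 0.0145 from 16 to 17 Mb, with Egfr, and by 0.0128 from 22 to 23 Mb, with Otx1 and Ehbp1.

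By genotype, promoter and distal peaks went in the same direction, but by unlike amounts in sorted chromosomes. The share of promoter peaks was higher in Suv39h dn by 0.22 on the log2 scale in asynchronous cells, 0.255 in mitotic cells and 0.08 in sorted chromosomes. These had rank 1, 1 and 4 of 20 chromosomes. For distal peaks the differences were 0.19, 0.31 and 0.22, with rank 2, 1 and 2. In mitotic cells chromosome 9 was close, at 0.233 for promoter and 0.301 for distal peaks. Regions called in both Suv39h dn and in neither WT library of asynchronous cells numbered 235 on chromosome 11, or 3.85% of its regions, where 2.45% of all regions were, and they fell in 101 windows of 1 Mb. Those called in both WT libraries alone numbered 32 (0.524%, with 0.754% of all regions). In mitotic cells the numbers were 12 (0.687%, with 0.622% of all) and 38 (2.18%, with 2.91%), and in sorted chromosomes 295 (2.56%, with 2.08%) and 248 (2.15%, with 2.71%).

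Regions called in all 4 libraries of a preparation allowed the level to be compared at fixed places, from fragments stacked at the summit and from the background, both recovered from the authors' fold and p-value. Values were centred on each region over the 4 libraries and then on the median of the other autosomes, so that only differences between libraries have a meaning. At 645 such regions of asynchronous cells the summit fragments of chromosome 11 were at -0.05 and -0.11 in WT and at 0.17 and -0.01 in Suv39h dn on the log2 scale. In mitotic cells, at 71 regions, the WT libraries were at -0.105 and -0.07 and the Suv39h dn libraries at 0.03 and 0.15. In sorted chromosomes, at 526 regions, WT was at -0.07 and -0.0026 and Suv39h dn at 0.04 in both libraries. Both Suv39h dn libraries were above both WT libraries in each preparation, as they were for 1, 2 and 5 of the other 18 autosomes in asynchronous cells, mitotic cells and sorted chromosomes. Within asynchronous Suv39h dn cells, however, the libraries were 0.17 and -0.01, about as far apart as the genotypes.

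The mean difference was 0.16 in asynchronous cells (1.12-fold), 0.18 (0.177, 1.13-fold) in mitotic cells and 0.08 (1.05-fold) in sorted chromosomes, and chromosome 11 had rank 1, 1 and 5 of the 19 autosomes. The other 18 autosomes ranged from -0.06 to 0.03, from -0.10 to 0.10 and from -0.115 to 0.14 (0.135). The background at the same regions differed by 0.19, 0.245 and 0.08, or 1.14-fold, 1.19-fold and 1.06-fold. This background counts fragments around the peak and may include those of the peak itself. It is therefore not a separate measure of the DNA between peaks. In asynchronous cells the summit fragments and the background were higher in Suv39h dn in 13 of 13 segments of 10 Mb, with ranges of 0.06 to 0.30 and 0.10 to 0.32. In mitotic cells each was higher in 11 of 12 segments with such a region, and in sorted chromosomes in 11 and 10 of 13. For scale, 3 copies in every cell in place of 2 would give a log2 difference of 0.585 in the amount of DNA. The measures here need not show that full value, since regions had to be called in all 4 libraries and the background has a lower limit in each library. The differences are therefore not to be read as fractions of a copy. The number of copies was not measured, and its part in these differences was not tested.

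**Figure D3:**
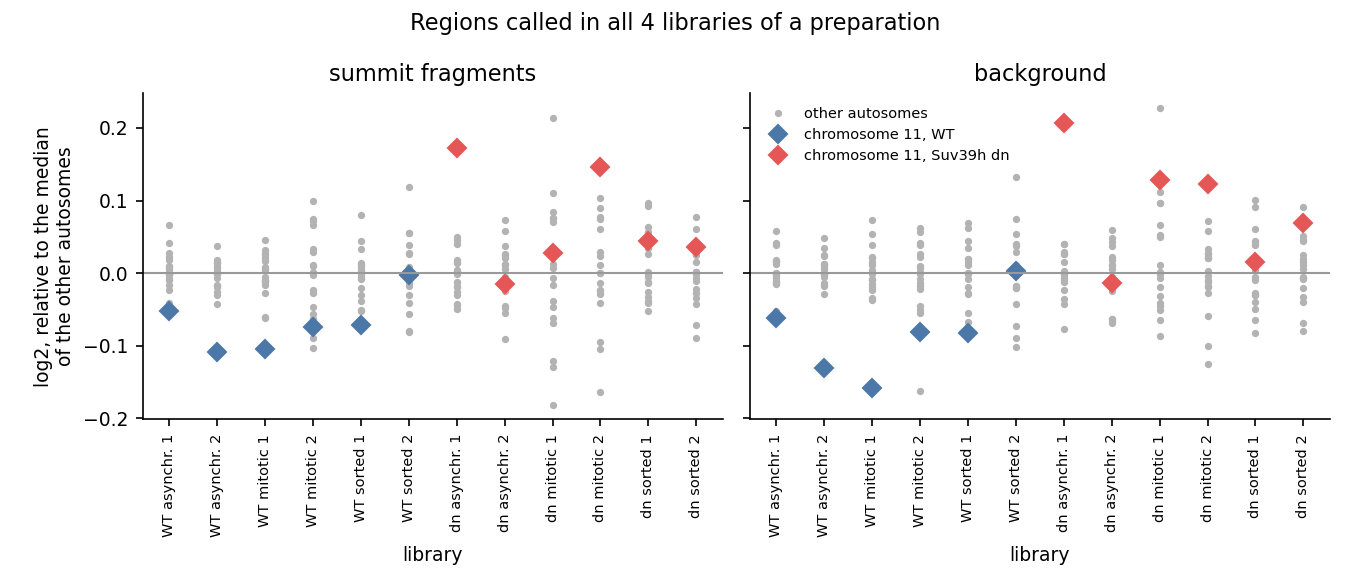
Log2 level of chromosome 11 (diamonds) and of each other autosome (grey points) at regions called in all 4 libraries of a preparation, relative to the median of the other autosomes (vertical axis), for each library (horizontal axis), from summit fragments and from background. Values are centred over the 4 libraries of a preparation, and the Suv39h dn diamonds (red) lie above the WT diamonds (blue) of the same preparation, with the first asynchronous Suv39h dn library at 0.17 and the second at -0.01.

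A level set within each library was the background of distal peaks, as a multiple of the lowest background of the library. On chromosome 11 its median was 1.31 and 1.26 in asynchronous, 1.31 and 1.35 in mitotic and 1.33 and 1.79 in sorted WT libraries. In Suv39h dn it was 1.39 and 1.27, 1.33 and 1.49, and 1.63 and 2.11. The median of the other 18 autosomes was 1.06 to 1.45. Chromosome 11 had rank 1 to 3 of 19 autosomes in each of the 12 libraries, WT included, and chromosome 8, the highest of the other autosomes, was at 1.38 to 2.00. Chromosomes 17 and 19 were at 1.14 to 1.61 and 1.04 to 1.60. The ratio of chromosome 11 to the median of the others was 1.1 to 1.3 in asynchronous cells, 1.03 to 1.18 in mitotic cells and 1.26 to 1.52 in sorted chromosomes, so that asynchronous cells and sorted chromosomes overlapped.

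**Figure D4:**
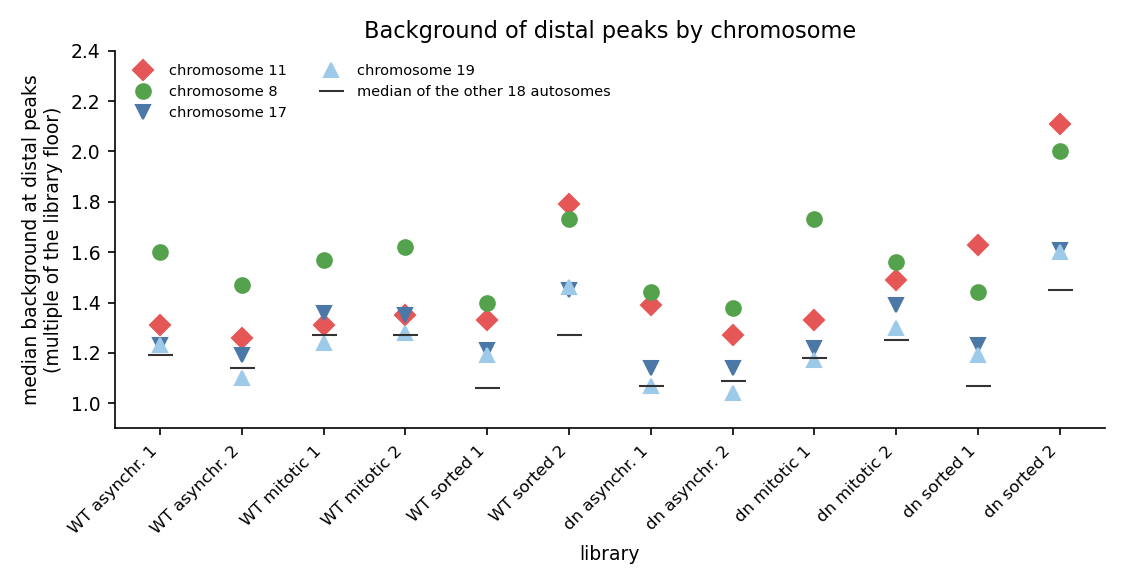
Median background at distal peaks as a multiple of the lowest background in the library (vertical axis) for 12 libraries (horizontal axis). Chromosomes 8 (circles), 17 and 19 (triangles down and up) are shown beside it. Chromosome 11 (red diamonds) lies above the median of the other 18 autosomes (black bars) in every library, by 1.03 to 1.52 times.

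Merged over the 12 libraries, the chromosome held 16656 of 231395 regions (7.20%), and 10503 of them were called in 1 library. It held 9.82% of the 3013 regions called in all 4 libraries of sorted chromosomes and in none from cells, 13.2% (17 regions) of the 129 called in all 8 libraries from cells and in none of sorted chromosomes, and 4.55% of the 2155 called in the 4 asynchronous libraries alone. No region of any chromosome was called in the 4 mitotic libraries alone (0 of 231395). CCAAT on either strand lay within 75 bp of the summit in 19.7% of all regions and 18.3% of those on chromosome 11. Of the 23 regions called in all 12 libraries 56.5% held it, against 23.5% of such regions elsewhere, and 78.3% of the former and 46.1% of the latter were at promoters. The part of the promoter share in this contrast was not tested. A match is a description of the letters, not of binding.

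Of 1639 protein-coding genes on the chromosome, 30 had a promoter peak in all 12 libraries, 667 (40.7%) in 6 or more and 282 (17.2%) in none, and on the other chromosomes 36.2% had one in 6 or more and 25.6% in none. The gene lists below were read against these shares. At least 1 asynchronous library had a promoter peak at 63.0% of the chromosome's genes, at least 1 mitotic library at 41.7% and at least 1 sorted library at 76.0%, against 61.2%, 37.0% and 64.7% of genes elsewhere. Of 16 mitosis genes 13 were called in 6 or more libraries, with a median of 7.5. Cdc27, a subunit of the anaphase-promoting complex, had a promoter peak in all 12, and Hmmr, Mis12, Tubg1, Ska2 and Ndel1 each in 11. Aurkb was called in 4 of 4 asynchronous, 0 of 4 mitotic and 2 of 4 sorted libraries, and Pttg1, which encodes securin, in 4, 3 and 0.

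Of 19 chromatin genes 11 were called in 6 or more libraries. Smarcd2, a subunit of the SWI/SNF remodelling complex, was called in all 12, H3f3b, a gene of a replacement variant of histone H3, in 11, and Brca1, a DNA repair gene, in 10. Cbx1, which encodes HP1β, the reader of the mark that Suv39h enzymes write, was called in 3 of 6 WT and 4 of 6 Suv39h dn libraries. The Polycomb genes Suz12 and Ezh1 were called in 3 and 2 of 6 WT and in 4 and 4 of 6 Suv39h dn libraries, and Cbx2 and Cbx8 in 5 and 6 of all 12. Smarce1 was called in all 4 libraries of sorted chromosomes and in 0 of the 8 from cells.

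Among 13 genes of LIF, Stat and Wnt signalling, 3 were called in 6 or more libraries, namely Stat3 in 10, the Wnt receptor gene Fzd2 in 9 and the adaptor gene Grb2 in 8. Lif itself was called in the 4 sorted libraries alone. Of 23 lineage transcription factors 2 were called in 6 or more libraries, Ikzf1 in 8 and Bcl11a in 7, and the list had a median of 2.0 libraries. Tbx4 was called in all 4 sorted libraries and in 0 from cells. Of the 10 Hoxb genes, 4 were called in no library, and Hoxb4, in 4, was called the most often. Of the 23 factors, 17 had a promoter peak in at least 1 sorted, 9 in at least 1 asynchronous and 1 in a mitotic library.

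Among lists of genes known for use in other tissues, the olfactory receptors, keratins and cytokines had a median of 0 libraries. The alpha-globin gene Hba-a1 was called in 4 sorted and 1 asynchronous libraries, and the list of 5 globin genes had a median of 4.0 libraries. Of 4 neighbouring genes, Snrnp25 was called in 11 libraries, Nprl3 in 6 and Mpg and Rhbdf1 in 3 each, with a median of 4.5. Of 82 olfactory receptor genes 64 were called in none, with 16 in at least 1 sorted, 3 in at least 1 asynchronous and 0 in a mitotic library. Of 50 type I keratin and keratin-associated genes 27 were called in none, with 23 in at least 1 sorted and 2 in at least 1 asynchronous library. Of 18 cytokine genes 14 were called in none. Of 7 ribosomal protein genes 5 were called in 6 or more, Rpl23a and Rpl27 in 9 each. Globin, olfactory receptor and keratin genes include near-identical copies, between which reads may be split.

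**Figure D5:**
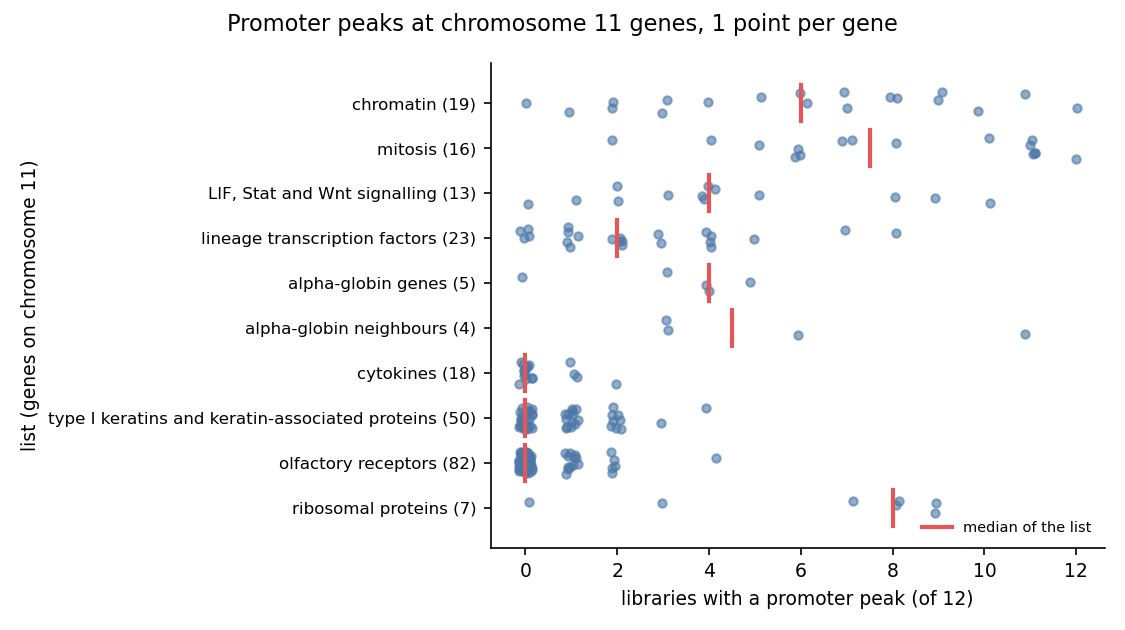
Number of libraries, of 12, with a peak summit within 1 kb of a start site (horizontal axis) for each chromosome 11 gene of the lists (vertical axis, number of genes in brackets), with points shifted slightly at random so that they can be told apart. Red lines are medians, 7.5 for mitosis genes and 0 for olfactory receptors, keratins and cytokines.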

How the data were processed

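The 12 ATAC-seq libraries, 2 for each genotype and preparation, were grouped by their labels. The authors trimmed reads with Trim Galore 0.4.4, aligned them with Bowtie2 2.2.9 to mm10, used SAMtools 1.2, removed duplicate and mitochondrial reads, shifted the ends, kept nucleosome-free fragments, ran MACS2 on every library by itself and dropped peaks in blacklisted regions, per the labels, the submitters' processing notes and the study's methods. The deposited lists give a fold (ratio of pileup to background), −log10 of the q-value and of the p-value, and a peak score that was not analysed. No reads or depths are in the lists. Since MACS2 adds 1 to pileup and background, whole summit fragments and background followed from the fold and the p-value for 437289 of 437289 peaks with −log10 p under 60 (tolerance 0.001).

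Chromosome ends matched GRCm38, which mm10 names, and genes came from the GENCODE annotation of it. Coordinates start at 1. Peaks were merged where they overlapped or touched. Preparations were compared by exact two-sided permutation of labels within genotype, with Benjamini-Hochberg adjustment over 20 chromosomes and a threshold of 0.05, in Python 3.11.15 with numpy 2.4.6, pandas 2.3.3 and scipy 1.17.1 (figures: matplotlib 3.10.9). The functions were tested on simulated lists. Members and lists were chosen with earlier results of these data known. Named regions were the highest by mean percentile of fold among those in all 12 libraries, in sorted chromosomes alone, in cells alone and in asynchronous cells alone. Named windows were the 5 fullest and the 3 with the largest difference each way, and genes came from lists by function. Of these, a few were named as examples, and some items are not reported here. The authors' differential analysis rests on read counts, which were not used here. Alternatives were a stricter q-value, equal list lengths, other distances and windows, a replicate block, leaving out each library and, added after the data were seen, leaving out the window from 3 to 4 Mb and using the background in place of summit fragments.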

Additional observations from a re-analysis of the deposited data

How the results depend on the processing

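Each of 10 results was computed again under the alternatives, 163 times in all, and 141 were counted as unchanged. For the 7 tested results this means the same direction and the same side of the threshold. The 3 genotype contrasts have no test. For them it means the same direction and a change smaller than the spread between libraries. The settings that changed a result were these. With lists of equal length, the share in sorted chromosomes minus cells was -0.09 on the log2 scale and that of distal peaks -0.231, both in the opposite direction, and the promoter excess was 9.84 points. With q at or under 1e-05 the share of promoter peaks was 0.458 and the promoter excess 8.49 points. With promoters within 500 bp the promoter excess was -0.0806 points, also reversed. The difference in GC lost its call at -1.25 points with the stricter q, at -0.573 with equal lengths and at -0.744 without the window from 3 to 4 Mb, and leaving out 1 library gave -0.931 to -0.573. For the share on the centromeric side of the midpoint, leaving out 1 library gave -0.186 to 1.91 points. The cause of these changes was not tested. The genotype differences kept their direction throughout, with leave-one-library ranges of 0.16 to 0.27 for the share, 61.9% to 72.1% of windows and 0.11 to 0.17 for summit fragments. The chromosome was chosen on this contrast, so a kept direction is a description only.

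With the replicate block, labels were permuted within genotype and replicate number, and the differences in share stayed at 0.123 and 0.419 with adjusted p of 0.566 and 0.179 (exact permutation test). It changed no call. Whether the numbers pair the libraries could not be settled. The deviations of chromosome shares correlated above 0.1 in 7 of 15 pairs of groups (range -0.839 to 0.865). The highest value was that between WT and Suv39h dn sorted chromosomes. Depth is not part of the lists, and the first mitotic Suv39h dn list, with 167 peaks on the chromosome, limits every mitotic value.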

Other observations

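The percentage of protein-coding genes with a promoter peak gave a result that depended on its scale, in a comparison chosen after the values were seen. Relative to the genes of the other chromosomes, those of chromosome 11 stood 7.15 to 12.3 percentage points higher in the 4 libraries of sorted chromosomes and between -3.92 and 5.77 in the 8 from cells, a difference of 8.34 points (adjusted p = 0.0127, exact permutation test), where 45% of chromosomes were called. As a log2 ratio the difference was 0.13 (adjusted p = 0.432, exact permutation test), where 20% were called. With lists of 1746 peaks it was 0.468 points (adjusted p = 0.622, exact permutation test). In sorted libraries 44.1% to 62.7% of the chromosome's genes had such a peak, against 5.61% to 57.3% in libraries from cells, so the point scale moves with the length of the list.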
